A study of Danio rerio with 50 samples.

Results

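The genes described here encode the subunits, activators, inhibitor and assembly factors of the proteasome in zebrafish (Danio rerio) liver. They were chosen by name: every gene whose current symbol starts with psma, psmb, psmc, psmd, psme, psmf or psmg. The array carried 67 probes for 51 such genes, out of 23232 probes in all. A probe was tested if no group had fewer than 3 arrays with a value for it, and 64 of the 67 met this and covered all 51 genes. The whole test held 22046 probes and 9160 named genes. For the 10 genes with more than 1 tested probe, the probe with the brightest reference signal stands for the gene.

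The proteasome is the protease that breaks down proteins tagged with ubiquitin. Its core particle is a barrel of alpha and beta rings, with the cutting sites inside on 3 of the beta subunits. The regulatory particle on its end has a base, whose ATPases unfold the substrate and feed it into the barrel, and a lid, which helps to bind the substrate and remove its ubiquitin. In cells that make antigenic peptides, and under interferon, immune-type beta subunits replace the constitutive cutting subunits, and the activator PA28 made of psme1 and psme2 can cap the core in place of the regulatory particle. In the liver of egg-laying fish, estradiol switches on the synthesis and export of yolk proteins.

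Adult male zebrafish were kept in water with estradiol at 0.5, 5 or 50 µg/L for 24 or 96 h, or left untreated. Each array set Cy5-labelled liver RNA of treated or untreated males against a Cy3-labelled pool, the same for all groups, of RNA from the livers of both sexes of wild-type fish. Over the 8 groups there were 50 arrays. At 24 h there were 8 control arrays and 6 arrays for each concentration. At 96 h there were 7 control arrays and 6, 4 and 7 arrays for 0.5, 5 and 50 µg/L. The descriptions of 6 of the 7 samples at 50 µg/L and 96 h name 97 h, and those of 5 µg/L at 96 h number their replicates out of 6, of which 4 were analysed. The labels call the samples biological replicates and do not say whether fish of a group shared a tank, nor do they give the age of the fish.

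Levels are given as log2 ratios of a fish sample over the pool, with each array's median set to 0. A change is the difference between the means of 2 groups on that log2 scale, with its standard error (SE). A gene rose or fell where limma's moderated test, fitted to all arrays and adjusted by the Benjamini-Hochberg method over 22046 probes, gave an adjusted p under 0.05. Because all arrays had the same dye orientation, a dye effect stays in each ratio and cancels in a change. Of 2550 values of the 51 genes, 9 were missing. No proteasome spot was saturated on the 35 treated arrays, and 36 to 51 of the 51 genes were above background in Cy5 on each. On 5 arrays, 3 of 50 µg/L at 24 h (replicates 3, 4 and 5) and 2 of 50 µg/L at 96 h (replicates 3 and 4), under 60% of all spots were above background in Cy5. For the proteasome genes named in full, as listed with the processing, results at 50 µg/L that changed their call without these low-signal arrays are given both ways. For the other proteasome genes, only the counts without these arrays are given. Scanner signals of the controls were not analysed here.

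Proteasome genes rose at 5 and 50 µg/L at both times, and the genes that rose were nearly all constitutive subunits of the core, the base and the lid. At 50 µg/L, 31 of 51 genes rose at 24 h, where 9.55% of all named genes rose. The median change of the 51 genes was 0.59, against 0.03 for all named genes. At 96 h, 31 of 51 again rose, where 13.3% of named genes rose, with a median change of 0.64 against 0.09. A single gene fell at 96 h, psmc3ip, where 8.16% of named genes fell. None fell at 24 h, where 6.15% of named genes fell and where limma gave 0 of the 51 a lower level even at an unadjusted p under 0.05. Such a p was reached in either direction by 27.3% of named genes there. Without the low-signal arrays, 27 genes rose at 24 h and 29 at 96 h.

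At 5 µg/L, 14 genes rose at 24 h, where 4.16% of named genes rose, with a median change of 0.41 against 0.02. At 96 h, 19 genes rose, where 9.86% of named genes rose, with a median change of 0.47 against 0.04. By limma none of the 51 fell at 5 µg/L at either time, except that psmc3ip fell at 96 h under 4 alternative settings given with that gene. At an unadjusted p under 0.05, 0 were lower at 24 h and 1 at 96 h, psmc3ip. Such a p was reached in either direction by 19.6% of named genes at 24 h and 27.6% at 96 h. The percentages of named genes that fell were 3.44% at 24 h and 5.43% at 96 h. The counts moved with the fit. At 24 h the count was 6 without replicate 1 of 5 µg/L, 33 with array weights, 30 with the controls of both times pooled and 8 in a fit of that contrast's arrays alone. At 96 h it was 12 in the last of these fits.

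At 0.5 µg/L no proteasome gene passed limma's test at either time. The percentages of named genes that rose there were 0.0983% at 24 h and 2.64% at 96 h, and 0.349% and 1.11% fell. At an unadjusted p under 0.05, 0 proteasome genes were higher and 1 lower at 24 h, and 11 were higher and 0 lower at 96 h. Such a p was reached in either direction by 12.04% of named genes at 24 h and 16.74% at 96 h. The median change of the 51 genes was -0.04 at 24 h and 0.21 at 96 h. The controls differed between these times. The median over the constitutive subunits on each array averaged -0.17 at 24 h and -0.49 at 96 h in controls. At 0.5 µg/L it averaged -0.25 and -0.24. The part of the lower 96 h controls in the change at 96 h was not tested. The count that rose at 96 h was 8 with array weights. It became 2 without replicate 4 of 0.5 µg/L, and 1 without replicate 2 of that group or without control replicate 1, 4 or 7.

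Single arrays of treated and untreated fish overlapped for most of these genes. The lowest treated array lay above the highest control array at 50 µg/L for 10 proteasome genes at 24 h and 16 at 96 h, as it did for 4.17% and 4.5% of named genes. At 5 µg/L this held for 2 genes at 24 h and 17 at 96 h, against 1.57% and 6.91%. At 0.5 µg/L it held for 0 genes at 24 h and 1 at 96 h, psmd7, against 0.142% and 1.62%. For psmd7 at 0.5 µg/L and 96 h the arrays lay at -0.5695, -0.38 and 0.18 (lowest, median, highest) and the controls at -1.15, -0.76 and -0.5703, so the groups all but touched. The base gene psmc1a had -0.18, 0.14 and 0.26 at 0.5 µg/L against -0.76, -0.30 and -0.12 in those controls, with a change of 0.50 ± 0.16 that did not pass (limma adjusted p = 0.0816). It passed with array weights and without the low-signal arrays (adjusted p = 0.0214 and 0.0444). The other, dimmer probe of psmc1a changed by -0.06 in the same comparison and did not pass.

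**Figure D1:**
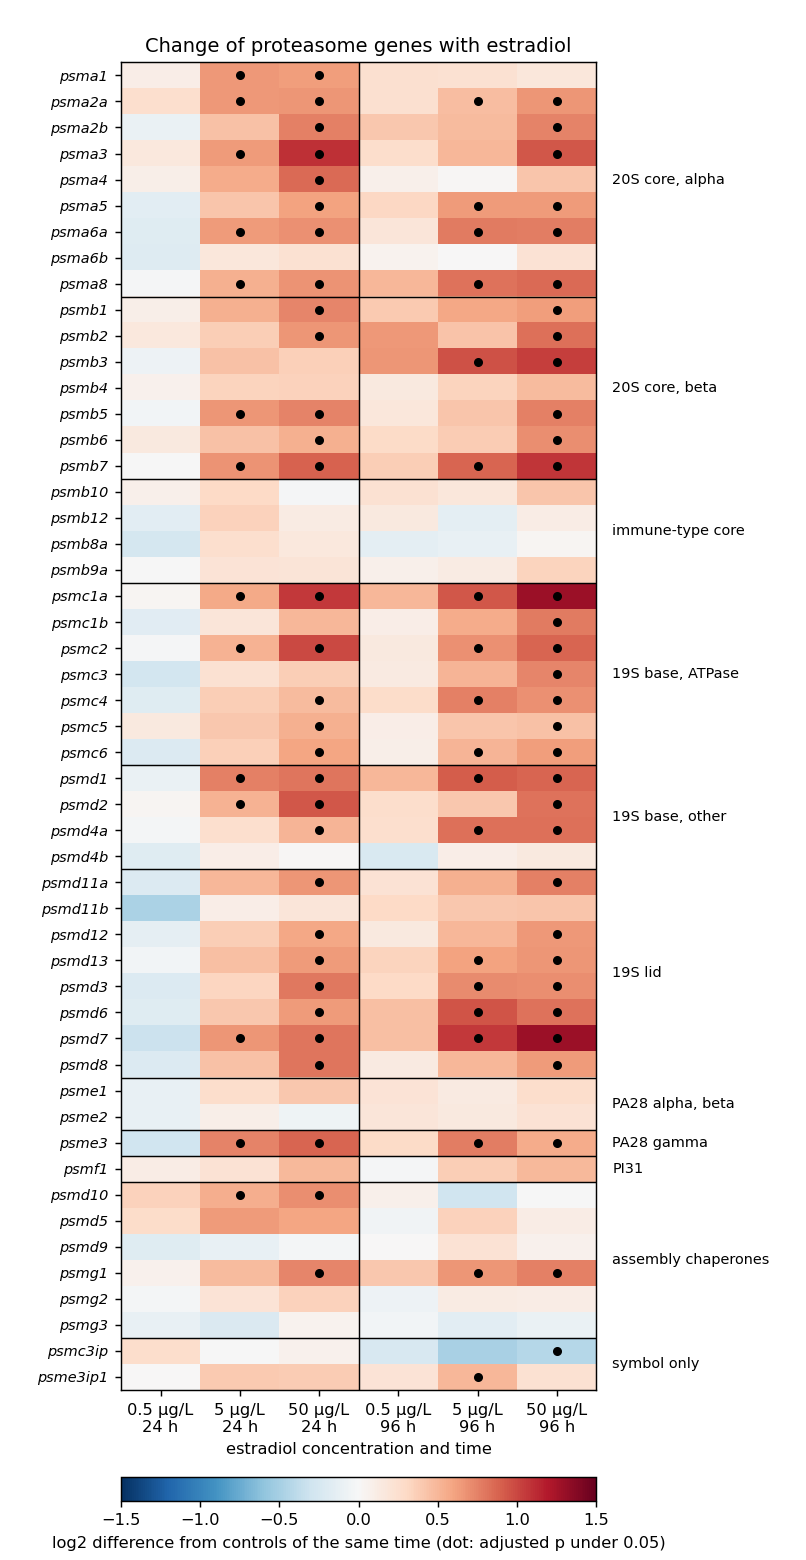
Change of each of the 51 proteasome genes (rows, grouped by role) at 0.5, 5 and 50 µg/L estradiol and 24 or 96 h (columns), as the log2 difference from controls of the same time, from blue (lower) to red (higher). A dot marks an adjusted p under 0.05. Most rows of the core, base and lid turn red at 5 and 50 µg/L. At 5 µg/L, 12 of their 35 genes carry a dot at 24 h and 16 at 96 h. Over all rows, each 50 µg/L column has 31 dots for rises. The rows of the immune-type core and of PA28 alpha and beta carry none.

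In the alpha ring, which forms the gate of the core, 8 of 9 genes rose at 50 µg/L and 24 h (median change 0.67) and 6 of 9 at 96 h (median change 0.67). The alpha subunit psma3 had log2 ratios of -1.04, -0.51 and -0.14 (lowest, median, highest) in the 24 h controls and of 0.05, 0.52 and 1.12 at 50 µg/L. In the 96 h controls its values were -1.09, -0.59 and -0.41, and at 50 µg/L they were -0.17, 0.08 and 0.78. All treated arrays lay above all control arrays at both times. Its change was 1.09 ± 0.18 (SE, adjusted p = 4.88e-06 by limma) at 24 h and 0.93 ± 0.17 (adjusted p = 5.47e-05) at 96 h.

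The alpha subunit psma2a went from -1.23, -0.58 and -0.36 in the 24 h controls to -0.24, -0.03 and 0.41 at 50 µg/L, with no overlap. At 96 h it went from -0.98, -0.84 and -0.57 to -0.49, -0.12 and 0.38, again with no overlap. Its change was 0.66 ± 0.14 (limma adjusted p = 0.000297) at 24 h and 0.67 ± 0.13 (adjusted p = 0.000173) at 96 h. At 5 µg/L and 24 h psma2a had the smallest p of the 51 genes, with a change of 0.65 ± 0.14 (limma adjusted p = 0.000868), and 5 of its 6 arrays lay above all controls. Another alpha subunit, psma6a, rose by 0.69 ± 0.16 at 24 h and 0.77 ± 0.16 at 96 h (limma adjusted p = 0.00165 and 0.000301). Its call at 24 h was lost without the low-signal arrays (change 0.58, adjusted p = 0.073).

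Of the remaining alpha genes, psma2b and psma5 rose at both times at the highest concentration. The others show where the ring was uneven. The gene psma8, whose entry lists psma7 as an older name, rose by 0.67 at 24 h and 0.85 at 96 h, but its second probe changed by -0.16 and -0.28 and passed at neither time. Both psma1 and psma4 rose at 24 h only, by 0.62 and 0.86, and had changes of 0.17 and 0.41 at 96 h that did not pass. The difference between the times was -0.45 ± 0.25 for psma1 and -0.44 ± 0.25 for psma4 and did not pass (limma adjusted p = 0.545 and 0.539). The gene psma6b, a second copy of psma6a whose symbol is also an older name of another gene, had changes of 0.23 and 0.22 and passed in no comparison.

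In the constitutive beta ring, 5 of 7 genes rose at 50 µg/L and 24 h (median change 0.66) and 6 of 7 at 96 h (median change 0.75). Of the 3 cutting subunits, all rose at both times. The trypsin-like subunit psmb7 had log2 ratios of -0.10, 0.52 and 0.77 in the 24 h controls and of 0.92, 1.23 and 1.80 at 50 µg/L. At 96 h the controls lay at -0.35, 0.02 and 0.28 and the 50 µg/L arrays at 0.81, 1.09 and 1.54. Neither pair of groups overlapped. Its change was 0.88 ± 0.17 (1.85-fold, limma adjusted p = 9.9e-05) at 24 h and 1.07 ± 0.17 (adjusted p = 2.25e-06) at 96 h.

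The 4 arrays of 5 µg/L at 96 h gave psmb7 values of 0.57, 0.98, 1.096 and 0.98, all above the controls. That change was 0.87 ± 0.20 (limma adjusted p = 0.00111), and the change at 24 h was 0.67 ± 0.17 (adjusted p = 0.00712), which was not called in a fit of the arrays of that contrast alone (adjusted p = 0.082). The chymotrypsin-like subunit psmb5 lay at -0.43, 0.20 and 0.43 on 7 control arrays at 24 h and at 0.35, 0.85 and 1.09 at 50 µg/L, where 5 of 6 treated arrays were above all controls. At 96 h it lay at -0.67, -0.08 and 0.12 on 6 control arrays and at -0.16, 0.58 and 1.31 on 6 treated arrays, of which 5 were above all controls. Its change was 0.74 ± 0.19 at 24 h and 0.75 ± 0.20 at 96 h (limma adjusted p = 0.00477 and 0.00481). Without the low-signal arrays the change of psmb5 at 24 h was 0.64 and did not pass (adjusted p = 0.0587).

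The caspase-like subunit psmb6 lay at -0.43, 0.06 and 0.44 on 7 control arrays at 24 h and at 0.19, 0.41 and 1.16 at 50 µg/L, so the groups overlapped. At 96 h the controls were at -0.47, -0.36 and -0.15 and the treated arrays at 0.08, 0.42 and 0.67, with no overlap. Its change was 0.53 ± 0.16 at 24 h and 0.69 ± 0.15 at 96 h (limma adjusted p = 0.0185 and 0.000692). The 24 h call of psmb6 was lost without the low-signal arrays (change 0.49, adjusted p = 0.122) and without control replicate 1 or treated replicate 2 or 3. That call was also lost in a fit of the arrays of that contrast alone (limma adjusted p = 0.0625). Among the non-cutting beta genes, psmb1 and psmb2 rose at both times and psmb3 at 96 h only, by 1.04 ± 0.22. Of the 2 probes of psmb1, 1 rose at each time, and the other did not pass. Their changes were 0.70 and 0.74 at 24 h and 0.52 and 0.63 at 96 h. The other 2 probes of psmb3 changed by -0.37 and 0.02 at 96 h and did not pass. The gene psmb4 had changes of 0.34 and 0.47 and passed in no comparison.

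In the base, which unfolds substrates, 8 of 11 genes rose at 50 µg/L and 24 h (median change 0.53) and 10 of 11 at 96 h (median change 0.77). Of its 7 ATPase genes, 5 rose at 24 h and 7 at 96 h. The ATPase gene psmc1a had log2 ratios of -0.17, 0.04 and 0.38 in the 24 h controls and of 0.74, 1.04 and 1.59 at 50 µg/L. At 96 h it had -0.76, -0.30 and -0.12 in the controls and 0.55, 0.85 and 1.47 at 50 µg/L. The groups were apart at both times. Its change was 1.06 ± 0.16 (2.08-fold, limma adjusted p = 1.23e-06) at 24 h and 1.28 ± 0.16 (2.44-fold, adjusted p = 8.16e-09) at 96 h, the smallest adjusted p of the 51 genes at each time.

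The 4 arrays of 5 µg/L at 96 h gave psmc1a values of 0.47, 0.36, 0.38 and 0.89, above every control, and a change of 0.93 ± 0.18 (limma adjusted p = 0.000221). At 24 h the change was 0.57 ± 0.16 (adjusted p = 0.0167), and it was not called without replicate 1 of 5 µg/L (adjusted p = 0.0662). These values come from 1 of 2 probes. The dimmer probe of psmc1a changed by 0.20 ± 0.21 at 50 µg/L and 24 h and 0.10 ± 0.17 at 96 h, and passed in neither. At 5 µg/L that probe changed by 0.10 at 24 h and -0.22 at 96 h, and again passed in neither. With the mean over both probes, the calls of psmc1a at 5 µg/L were lost (adjusted p = 0.144 at 24 h and 0.201 at 96 h) and those at 50 µg/L were not.

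The ATPase gene psmc2 went from -0.20, -0.02 and 0.37 in the 24 h controls to 0.70, 0.88 and 1.51 at 50 µg/L, and from -0.33, -0.21 and 0.28 to 0.32, 0.56 and 1.38 at 96 h. Neither pair of groups overlapped. Its change was 0.99 ± 0.15 (limma adjusted p = 1.93e-06) at 24 h and 0.87 ± 0.15 (adjusted p = 1.28e-05) at 96 h. The ATPase genes psmc4, psmc5 and psmc6 rose at both times, by 0.44 to 0.69, and both probes of psmc6 rose. The genes psmc1b and psmc3 rose at 96 h, by 0.77 and 0.73, and had changes of 0.49 and 0.38 at 24 h that did not pass. The difference between the times did not pass for either (limma adjusted p = 0.758 and 0.66).

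Among the base genes that are not ATPases, the scaffold subunit psmd2 went from -0.36, -0.10 and 0.19 in the 24 h controls to 0.61, 0.84 and 1.13 at 50 µg/L, with no overlap. Its change was 0.94 ± 0.17 (limma adjusted p = 3.87e-05) at 24 h and 0.81 ± 0.17 (adjusted p = 0.000225) at 96 h, where the treated arrays, at -0.06, 0.43 and 0.96, lay above the controls, at -0.78, -0.27 and -0.12. The other scaffold subunit, psmd1, rose by 0.81 ± 0.17 at 24 h and 0.88 ± 0.17 at 96 h (adjusted p = 0.000509 and 0.000104). For psmd1 the 5 µg/L arrays at 24 h, at 0.37, 0.70 and 1.18, lay above all controls, at -0.41, -0.07 and 0.33. At 50 µg/L, 5 of 6 arrays at 24 h and 5 of 7 at 96 h did.

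The ubiquitin receptor psmd4a rose by 0.51 ± 0.16 at 24 h and 0.83 ± 0.16 at 96 h (limma adjusted p = 0.0217 and 6.61e-05). At 96 h its values were -0.69, -0.55 and 0.11 in the controls and 0.18, 0.33 and 0.92 at 50 µg/L, with no overlap, while at 24 h the groups overlapped. The 24 h call of psmd4a was lost without the low-signal arrays (change 0.45, adjusted p = 0.179), in a fit of the arrays of that contrast alone, and without control replicate 4 or 8 or treated replicate 2 or 3. That call was also lost with the replicate number as a block (limma adjusted p = 0.0852). Its second copy psmd4b, filed on the array as psmd4, had changes of 0.01 ± 0.17 and 0.15 ± 0.17 and passed in no comparison.

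In the lid, 7 of 8 genes rose at 50 µg/L at each time, with a median change of 0.65 at 24 h and 0.68 at 96 h. The lid subunit psmd7, the partner of the ubiquitin-removing enzyme psmd14 (not analysed here), had log2 ratios of -0.43, 0.00 and 0.60 in the 24 h controls and of 0.37, 0.93 and 1.04 at 50 µg/L. At 96 h the controls lay at -1.15, -0.76 and -0.57 and the treated arrays at 0.26, 0.50 and 1.05. The groups overlapped at 24 h and were apart at 96 h. Its change was 0.81 ± 0.16 (1.75-fold, limma adjusted p = 0.000255) at 24 h and 1.28 ± 0.16 (2.44-fold, adjusted p = 1.94e-08) at 96 h.

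The psmd7 mean of the controls was 0.02 at 24 h and -0.76 at 96 h, while the mean at 50 µg/L was 0.83 at 24 h and 0.53 at 96 h. The difference between the changes at the 2 times was 0.48 ± 0.23 and did not pass (limma adjusted p = 0.445). The lid subunit psmd6 rose by 0.63 ± 0.18 at 24 h and 0.82 ± 0.18 at 96 h (adjusted p = 0.00976 and 0.000409). Its 5 µg/L arrays at 96 h, at 0.13, -0.02, 0.10 and 0.16, lay above the controls, at -1.71, -0.78 and -0.34, as did 6 of 7 arrays at 50 µg/L. The lid genes psmd3, psmd8, psmd11a, psmd12 and psmd13 also rose at both times, by 0.58 to 0.81.

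All 3 probes of psmd11a rose at both times. Of the 3 probes of psmd12, 1 rose, and the others changed by -0.26 and 0.25 at 24 h and -0.38 and 0.30 at 96 h without passing. The gene psmd11b, a second copy of psmd11a, had changes of 0.18 and 0.41 and passed in no comparison. For psma6, psmd4 and psmd11, 1 copy thus rose and the other was not called. The difference between copies was not tested.

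**Figure D2:**
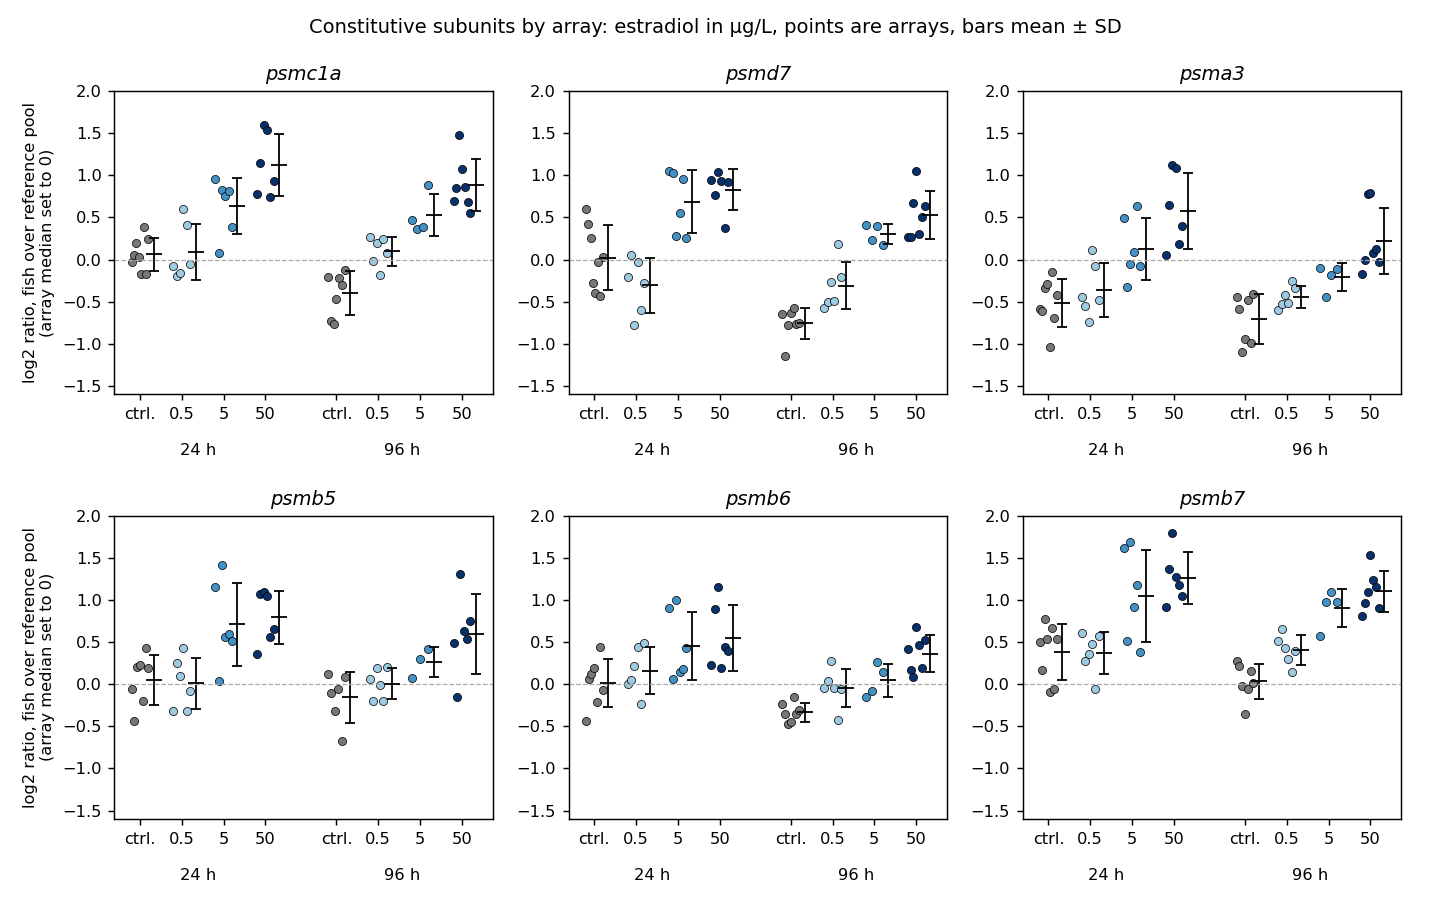
Log2 ratio of fish sample over reference pool for 6 constitutive subunit genes, with each array's median set to 0, in controls and at 0.5, 5 and 50 µg/L estradiol at 24 and 96 h. Points are arrays and bars are mean ± SD. For psmc1a, psma3 and psmb7 every 50 µg/L array lies above every control of its time, while psmb6 and psmd7 overlap with the controls at 24 h and psmb5 at both times.

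At 50 µg/L the medians of core, base and lid lay close together. The class medians of the change at 50 µg/L and 24 h were 0.67 for core alpha, 0.66 for core beta, 0.53 for the base and 0.65 for the lid. At 96 h they were 0.67, 0.75, 0.77 and 0.68. These are descriptions, and the differences between the classes were not tested. Over the 35 constitutive subunit genes together, 28 rose at 24 h and 29 at 96 h, with medians of 0.66 and 0.73. At 5 µg/L, 12 rose at 24 h and 16 at 96 h, with medians of 0.44 and 0.52.

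Each array's median over the 35 constitutive genes shows the groups as a whole. It ran from -0.44 to 0.12 in the 24 h controls (median -0.22), from -0.40 to -0.10 at 0.5 µg/L, from -0.05 to 0.57 at 5 µg/L and from 0.18 to 0.69 at 50 µg/L. At 96 h it ran from -0.74 to -0.31 in the controls, from -0.47 to 0.01 at 0.5 µg/L, from 0.02 to 0.19 at 5 µg/L and from 0.01 to 0.67 at 50 µg/L. The 50 µg/L arrays lay above all controls at both times, the 5 µg/L arrays at 96 h only, and the 0.5 µg/L arrays overlapped with the controls at both times. The value of 0.67 belongs to 1 low-signal array, replicate 4 of 50 µg/L at 96 h, and the other 6 arrays of that group reached at most 0.22.

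**Figure D3:**
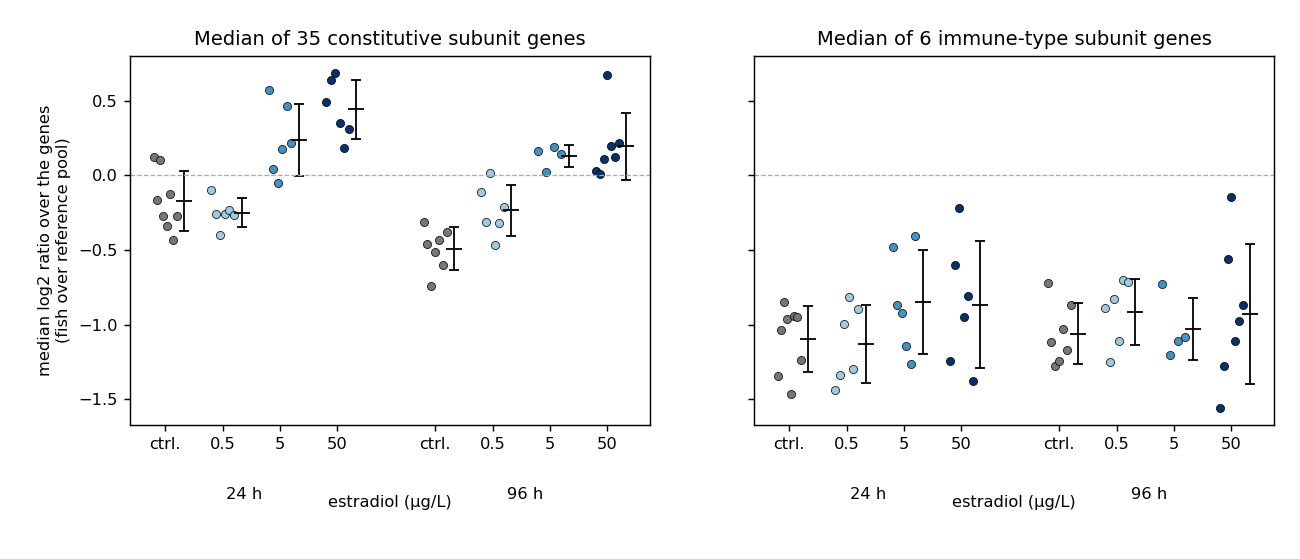
Median log2 ratio over the 35 constitutive subunit genes (left) and the 6 immune-type genes (right) on each array, with 24 and 96 h side by side and estradiol in µg/L. Points are arrays and bars are mean ± SD. In the left panel every 50 µg/L array lies above the controls of its time; in the right panel all groups overlap, between -1.56 and -0.15.

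None of the 6 immune-type genes was called in any of the 6 comparisons of estradiol with control by limma, and at an unadjusted p under 0.05 the count was also 0 in each. Of named genes, 0.0983% to 13.3% rose and 0.349% to 8.16% fell in these comparisons. For 6 genes, 0 calls at an adjusted p under 0.05 is near those shares. An unadjusted p under 0.05 was reached in either direction by 12.04% to 33.2% of named genes in these comparisons. Whether 0 of 6 genes is low against these percentages was not tested. The 6 genes were the beta subunits psmb8a, psmb9a, psmb10 and psmb12, which take the place of constitutive beta subunits, and the PA28 subunits psme1 and psme2. Their median change at 24 h was 0.26 at 5 µg/L and 0.14 at the highest concentration, and at 96 h it was 0.13 and 0.24. None was called in any alternative setting or with any 1 array left out. Their SEs at 50 µg/L ran from 0.18 to 0.27, against 0.13 to 0.22 for the 35 constitutive genes. Without the low-signal arrays, some of their small positive changes at 50 µg/L turned negative. The change of psmb8a became -0.07 at 24 h and -0.16 at 96 h, and that of psmb12 -0.12 and -0.18. For psmb9a at 24 h it became -0.03, and for psme2 at 96 h -0.07. The other changes of the 6 genes at 50 µg/L kept their sign.

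The chymotrypsin-like immune subunit psmb8a had log2 ratios of -1.51, -1.11 and -0.64 in the 24 h controls and of -1.53, -0.87 and -0.34 at 50 µg/L. At 96 h it had -1.53, -1.09 and -0.80 in the controls and -1.41, -1.28 and -0.48 at 50 µg/L. The groups overlapped at both times. Its change was 0.15 (95% confidence interval -0.21 to 0.51) at 24 h and 0.03 (-0.33 to 0.38) at 96 h.

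The caspase-site replacement psmb9a lay at -1.81, -1.31 and 0.05 on 7 control arrays at 24 h and at -1.43, -0.79 and -0.48 at 50 µg/L. At 96 h it lay at -1.33, -0.92 and -0.57 on 6 control arrays and at -1.10, -0.60 and -0.07 on 6 treated arrays. Again the groups overlapped. Its change was 0.20 (95% interval -0.29 to 0.68) at 24 h and 0.33 (-0.17 to 0.84) at 96 h.

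The trypsin-site replacement psmb10 lay at -1.43, -0.91 and -0.50 in the 24 h controls and at -1.74, -1.09 and -0.01 at 50 µg/L, and at 96 h at -1.51, -1.13 and -0.64 and at -1.29, -0.51 and -0.23. Its arrays overlapped with the controls at both times. Its change was -0.02 (95% interval -0.50 to 0.46) at 24 h and 0.41 (-0.06 to 0.88) at 96 h. A second probe filed under psmb10, a name that another gene, psmb13a, has also carried, changed by 0.06 and 0.07.

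For psmb12, a fish gene of the same kind that the array files as psmb11, the change was 0.13 (95% interval -0.41 to 0.66) at 24 h and 0.11 (-0.41 to 0.64) at 96 h. Its arrays at 24 h lay at -1.40, -0.85 and -0.38 in the controls and -1.39, -0.74 and -0.09 at 50 µg/L. Its 50 µg/L arrays at 96 h spread from -2.32 to 0.46 around a median of -0.69. Of the PA28 subunits, psme1 lay at -1.86, -1.08 and -0.82 in the 24 h controls and at -1.305, -0.85 and -0.01 at 50 µg/L, and changed by 0.40 (95% interval -0.02 to 0.82). At 96 h psme1 changed by 0.26 (-0.16 to 0.68). The partner psme2 changed by -0.06 (-0.54 to 0.41) at 24 h and 0.22 (-0.25 to 0.68) at 96 h. Values of psme2 ran from -1.97 to -0.81 in the 24 h controls and from -2.15 to -0.85 at 50 µg/L. Several of these intervals reach the constitutive medians of 0.66 and 0.73, so a change of that size in a single immune-type gene was not excluded.

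**Figure D4:**
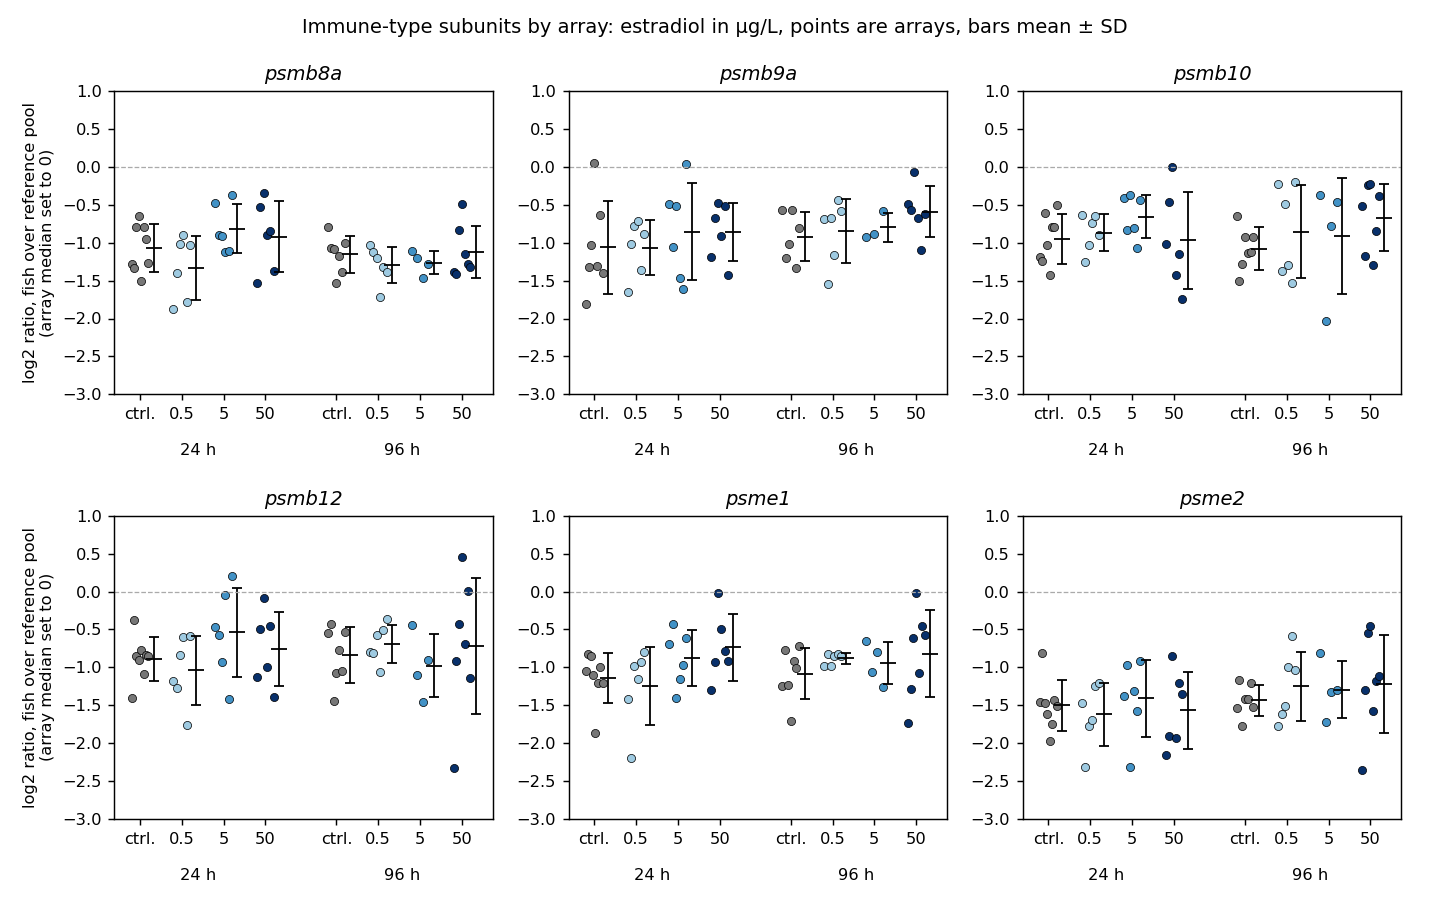
Log2 ratio of fish sample over reference pool for the 6 immune-type genes, with each array's median set to 0, in controls and at 0.5, 5 and 50 µg/L estradiol at 24 and 96 h. Points are arrays and bars are mean ± SD. Treated and control arrays overlap in every panel, and most values lie below 0, the median of their array.

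Whether a constitutive cutting subunit moved more than its immune-type counterpart was tested by exact permutation of the arrays (two-sided) on the difference of their 2 log2 ratios, for 3 pairs in 6 comparisons. These 18 tests were added after the data had been seen. The difference psmb7 minus psmb10 at 50 µg/L and 24 h was 1.33 ± 0.31 (SD, n = 8) in the controls and 2.23 ± 0.44 (SD, n = 6) in treated fish, a shift of 0.91 (exact permutation p = 0.000333, the smallest this design can give, adjusted p = 0.00599 over the 18 tests). In 6 of 6 treated arrays it lay above all controls. At the same time psmb5 minus psmb8a was 1.14 ± 0.22 (SD, n = 7) in the controls and 1.72 ± 0.27 (SD, n = 6) in treated fish, a difference of 0.57 (exact permutation p = 0.00233, adjusted p = 0.021), with 4 of 6 treated arrays above all controls.

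For psmb6 minus psmb9a the difference at 50 µg/L and 24 h was 0.33, which did not pass (exact permutation p = 0.145, adjusted p = 0.231). The 3 differences at 50 µg/L and 96 h were 0.67 for psmb5 minus psmb8a, 0.37 for psmb6 minus psmb9a and 0.66 for psmb7 minus psmb10. None passed after adjustment over the 18 tests (exact permutation, adjusted p = 0.0682, 0.104 and 0.0682). Without the low-signal arrays, an alternative added after the data had been seen, the shifts at 24 h were 0.86 for psmb7 minus psmb10 and 0.70 for psmb5 minus psmb8a, with 3 of 3 treated arrays above all controls for each. Their exact permutation p = 0.00606 and 0.00833 are the smallest that 3 treated arrays allow, and both came to an adjusted p = 0.05, which does not pass. With the same arrays left out, psmb6 minus psmb9a shifted by 0.52 at 24 h (exact permutation, adjusted p = 0.15). At 96 h the shifts were then 0.88 for psmb5 minus psmb8a, 0.51 for psmb6 minus psmb9a and 0.74 for psmb7 minus psmb10. None of these passed (exact permutation, adjusted p = 0.05, 0.0545 and 0.0545). With all arrays, none of the 12 differences at 5 and 0.5 µg/L passed either, with adjusted p from 0.0857 upward in exact permutation tests.

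Immune cell markers were read beside these values. At 50 µg/L, 9.55% of named genes rose and 6.15% fell at 24 h, and 13.3% rose and 8.16% fell at 96 h. Of 11 macrophage and neutrophil markers and 4 lymphocyte markers that were tested, 0 were called by limma at 50 µg/L at either time, with median changes of -0.07 and 0.34 for the first list and -0.00169 and 0.21 for the second at 24 and 96 h. Array medians of the macrophage and neutrophil list ran from -1.66 to -0.90 in the 24 h controls and from -1.55 to -0.72 at 50 µg/L, and at 96 h from -1.90 to -0.78 and from -1.12 to -0.25. Of 12 genes of antigen presentation and the interferon response, 1 fell at 24 h, the peptide-loading factor tapbp.1 (-1.23 ± 0.36, limma adjusted p = 0.0134), and 1 rose at 96 h, the interferon-induced gene mxa (0.58 ± 0.19, adjusted p = 0.0299). Each count of 1 among these 12 genes is near the share of named genes. The part of immune cells in the immune-type values was not tested.

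Other activators and regulators differed from gene to gene. The gene psme3 encodes the nuclear PA28 gamma, which is not interferon-induced. It had log2 ratios of -1.15, -0.39 and -0.21 in the 24 h controls, of -0.10, 0.32 and 0.50 at 5 µg/L and of 0.09, 0.28 and 0.91 at 50 µg/L. Both treated groups lay above all controls. Its change was 0.74 ± 0.19 at 5 µg/L and 0.87 ± 0.19 at 50 µg/L (limma adjusted p = 0.00907 and 0.000705).

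At 96 h psme3 lay at -1.14, -0.53 and -0.44 in the controls, at 0.38, 0.20, -0.01 and -0.25 at 5 µg/L, and at -0.64, -0.27 and 0.54 at 50 µg/L, where 6 of 7 arrays were above all controls. The change was 0.76 ± 0.22 at 5 µg/L and 0.56 ± 0.19 at 50 µg/L (limma adjusted p = 0.0145 and 0.0313). The 5 µg/L call was lost without replicate 1 or 2 of that group (adjusted p = 0.077 and 0.0519). The call of psme3 at 50 µg/L and 96 h was lost without the low-signal arrays (change 0.46, adjusted p = 0.118), with quantile normalization and with array weights. It was also lost without control replicate 4 or 7 or treated replicate 4, 6 or 7. The inhibitor psmf1 had changes of 0.49 and 0.48 at 50 µg/L, and neither passed (limma adjusted p = 0.0732 and 0.0568).

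Of 6 assembly chaperones, 2 rose at 50 µg/L and 24 h and 1 at 96 h, where 9.55% and 13.3% of named genes rose. The count of 1 is near that share. The chaperone psmg1, which helps to build the alpha ring, rose by 0.73 ± 0.15 at 24 h and 0.75 ± 0.15 at 96 h (limma adjusted p = 0.000477 and 0.000212), and its 50 µg/L arrays at 24 h, at 0.44, 0.77 and 0.90, lay above all controls. The base chaperone psmd10 rose by 0.69 ± 0.17 at 24 h (adjusted p = 0.00329) and had a change of -0.01 ± 0.17 at 96 h. The difference between those times was -0.70 ± 0.24 and did not pass (limma adjusted p = 0.254). Of the remaining chaperones, psmd5 had changes of 0.59 and 0.11, psmg2 0.34 and 0.11, psmg3 0.05 and -0.09 and psmd9 -0.03 and 0.07 at the 2 times, and none passed. A dimmer probe of psmd9 rose at 96 h by 0.51 ± 0.14 (adjusted p = 0.00873).

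The symbol rule also takes in 2 genes that are not proteasome parts. The gene psmc3ip encodes a factor of meiotic recombination. It had log2 ratios of 0.15, 0.29 and 0.70 in the 96 h controls and of -0.67, -0.12 and 0.34 at 50 µg/L, and the groups overlapped. It fell by 0.42 ± 0.15 on the log2 scale (limma adjusted p = 0.0335). This call was lost in 7 of 14 fits that left out 1 array (control replicates 5, 6 and 7 and treated replicates 2, 4, 6 and 7). It was also lost under quantile normalization, in a fit of that contrast's arrays alone, with the controls of both times pooled, with array weights and without the low-signal arrays (adjusted p from 0.0518 to 0.234). At 5 µg/L and 96 h, 4 of 4 arrays of psmc3ip lay below all controls, and the change of -0.48 ± 0.17 did not pass (limma adjusted p = 0.0505). It passed on probes with values on all arrays, with array weights, without the low-signal arrays and in the fit of the mean over probes (adjusted p from 0.0414 to 0.0488). The psme3-binding factor psme3ip1 rose at 5 µg/L and 96 h, by 0.50 ± 0.17 (limma adjusted p = 0.041). At 24 h it had a change of 0.39 at 5 µg/L, and at 50 µg/L it had 0.38 at 24 h and 0.23 at 96 h, none of which passed.

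The steps between concentrations were tested on the treated arrays alone, from the scanner's Cy5 and Cy3 intensities. From 0.5 to 5 µg/L at 24 h, 6 proteasome genes rose, where 3.12% of named genes rose, with a median change of 0.47 against -0.02. They were psma6a (0.92 ± 0.18), psmd1 (0.85 ± 0.18), psmd7 (1.02 ± 0.18), psmd8 (0.69 ± 0.20), psmd11a (0.71 ± 0.18) and psme3 (1.05 ± 0.23), with limma adjusted p from 0.00045 to 0.0461. Of the 3 probes of psmd11a, 1 rose in this step, and their changes ran from 0.22 to 0.71. No proteasome gene fell, where 1.48% of named genes fell, and at an unadjusted p under 0.05 the counts were 29 higher and 0 lower. Such a p was reached in either direction by 16.5% of named genes. Without replicate 2 of 5 µg/L 15 genes rose, and without its replicate 3, 10 did.

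From 0.5 to 5 µg/L at 96 h none was called by limma, where 1.82% of named genes rose and 1.36% fell. The median change was 0.28. At an unadjusted p under 0.05, 13 were higher and 0 lower, and 12.9% of named genes had such a p in either direction. From 5 to 50 µg/L the count of calls was 0 at both times, where 0.12% of named genes rose and 0.207% fell at 24 h and 0.0% did either at 96 h. An unadjusted p under 0.05 was reached in either direction by 6.68% of named genes at 24 h and 4.48% at 96 h. At that level, 5 proteasome genes were higher at 24 h and 1 at 96 h, and none was lower. The median changes of this step were 0.14 and 0.10. For psmc1a the step from 5 to 50 µg/L was 0.47 ± 0.19 at 24 h and 0.32 ± 0.21 at 96 h, neither of which passed.

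No change with estradiol was shown to differ between 24 and 96 h. Tested in the same fit, the change at 96 h minus that at 24 h passed for 0 proteasome genes at each concentration. In named genes this difference was positive and called for 0.808%, 1.27% and 0.317% at 0.5, 5 and 50 µg/L, and negative and called for 0.0655%, 0.415% and 0.0218%. An unadjusted p under 0.05 was reached in either direction by 11.7%, 13.6% and 12.2% of named genes at 0.5, 5 and 50 µg/L. At that level, limma gave 11 proteasome genes higher and 1 lower at 0.5 µg/L, 1 and 2 at 5 µg/L, and 2 and 2 at 50 µg/L. The medians of the difference were 0.28, 0.06 and 0.02. The 50 µg/L comparisons at 24 and 96 h share no arrays but come from the same fit, with a shared estimate of the spread. How many named genes rose in both was not counted. Of the proteasome genes, 28 rose in both, of 31 at each time. Those that rose at 24 h alone were psma1, psma4 and psmd10, and those at 96 h alone were psmb3, psmc1b and psmc3.

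The untreated fish themselves differed between the times. At 96 h the proteasome genes of the controls lay lower, with a median change of -0.21 from 24 h, against -0.02 for named genes. Of the 51, 0 rose and 2 fell, psmd1 by 0.68 ± 0.16 and psmd7 by 0.78 ± 0.16 on the log2 scale (limma adjusted p = 0.024 and 0.00549), where 0.349% of named genes rose and 1.1% fell. An unadjusted p under 0.05 was reached in either direction by 13.8% of named genes. At that level, 1 proteasome gene was higher and 17 were lower, and all 17 were constitutive subunits. The count that fell was 1 without control replicate 1 or 2 of 24 h or 2, 3 or 6 of 96 h, and 4 without replicate 1 of 96 h. The 6 immune-type genes had a median change of 0.05 between the controls.

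Markers of the exocrine pancreas, which lies close to the fish liver, moved with the same split of the controls. Of 14 tested markers, 7 fell from 24 to 96 h in the controls (median change -1.35), and their array median ran from -1.17 to 0.67 at 24 h and from -3.21 to 0.16 at 96 h. With 50 µg/L, 0 of 14 were called at 24 h (median change -0.19, array medians from -1.34 to 0.47) and 3 rose at 96 h (median change 0.85, array medians from -0.74 to -0.06). Of named genes, 1.1% fell between the controls, and with 50 µg/L 9.55% rose at 24 h and 13.3% at 96 h. With the pancreas marker level of each array as a covariate, an alternative added after the data had been seen, 31 proteasome genes rose at 50 µg/L and 24 h and 30 at 96 h, and 14 and 19 rose at 5 µg/L.

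Markers of hepatocytes, the main cell type of the liver, moved the other way from the proteasome genes. Of 10 tested markers, 8 fell at 50 µg/L at each time, where 6.15% and 8.16% of named genes fell. The median changes were -1.40 at 24 h and -1.53 at 96 h. Array medians of the list's log2 ratios ran from 2.56 to 3.59 in the 24 h controls and from 0.26 to 2.19 at 50 µg/L, and from 2.60 to 3.33 and from 0.49 to 1.84 at 96 h. In whole tissue, fewer cells of a type and less RNA per cell cannot be told apart. The part of the hepatocyte markers in the proteasome values was not tested. Of 9 testis markers, 2 rose at each time at 50 µg/L, where 9.55% of named genes rose at 24 h and 13.3% at 96 h. Of 8 erythrocyte markers none was called, which is near the share of named genes.

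Parts of the proteasome and of the ubiquitin pathway outside the symbol rule were read from lists of known genes. Of 6 tested proteasome parts with other symbols, 4 rose at 50 µg/L and 24 h and 3 at 96 h, and none fell, where 9.55% and 13.3% of named genes rose. The ubiquitin receptor adrm1 rose by 0.65 ± 0.14 and 0.96 ± 0.14 (limma adjusted p = 0.000806 and 8.49e-07), and the core assembly factor pomp by 1.13 ± 0.18 and 0.98 ± 0.18 (adjusted p = 4.84e-06 and 3.96e-05). The proteasome-bound deubiquitinase usp14 rose by 0.68 ± 0.16 and 0.53 ± 0.15. Of 6 genes that regulate proteasome transcription or its factors, none rose at either time. Of these, stat3 fell at 24 h (-0.67 ± 0.19, limma adjusted p = 0.0124), where 6.15% of named genes fell. For 6 genes, these counts are near the shares of named genes. The factor nfe2l1a, the relative of the mammalian activator of proteasome genes, had changes of -0.34 ± 0.16 and 0.37 ± 0.17 that did not pass (adjusted p = 0.189 and 0.124).

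The counts of the lists that follow stand beside 9.55% of named genes that rose and 6.15% that fell at 50 µg/L and 24 h, and 13.3% and 8.16% at 96 h. Of 6 genes of ubiquitin, ubiquitin-like proteins and their activating enzymes, 1 rose at 24 h, near that share, and 2 at 96 h. The 2 were uba1, the ubiquitin-activating enzyme (0.57 ± 0.17), and sae1, a subunit of the enzyme that activates the ubiquitin-like protein SUMO (0.62 ± 0.21). Of 27 ubiquitin conjugating enzymes, 6 rose at 24 h and 11 at 96 h, and none fell. At 96 h ube2d3 rose by 0.81 ± 0.14, ube2l3b by 0.93 ± 0.16 and ube2d2 by 0.79 ± 0.15. Of 18 genes that pull proteins out of the endoplasmic reticulum or hand them to the proteasome, 6 rose at 24 h and 10 at 96 h, and none fell. They included the segregase vcp (0.74 ± 0.19 at 24 h and 1.03 ± 0.18 at 96 h, limma adjusted p = 0.00339 and 2.52e-05), the membrane channel gene derl1 (0.56 ± 0.18 and 0.83 ± 0.18) and, at 96 h, herpud1 (0.76 ± 0.16).

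Of 11 deubiquitinases 3 rose at each time, beside 9.55% of named genes at 24 h and 13.3% at 96 h, among them usp10 (1.04 ± 0.16 and 0.73 ± 0.16), uchl3 (0.88 ± 0.19 and 0.77 ± 0.19) and usp5 (0.69 ± 0.18 and 0.64 ± 0.18). Of 23 cytosolic and mitochondrial folding chaperones, 6 rose and 1 fell at 24 h, beside 9.55% and 6.15% of named genes, and 7 rose at 96 h. At 96 h the mitochondrial chaperone hspd1 rose by 1.28 ± 0.20 (limma adjusted p = 2.43e-06), beside the folding subunit cct4 (0.75 ± 0.16) and the heat shock cognate hspa8 (0.74 ± 0.17).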

How the data were processed

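The value table deposited by the authors holds log2 ratios of each fish sample (Cy5) over the reference pool (Cy3), 1 column per array. How they were normalized is not given in the sources used here. Scanner files of the 35 treated arrays hold, per the file headers, spot and background intensity in both channels and the percent of pixels above background; a spot with more than 50% of such pixels counted as above background. Probe names were updated to current zebrafish symbols through a RefSeq table. After subtraction of its median from each array, limma 3.58.1 was used to fit a mean for each of the 8 groups (lmFit and eBayes, R 4.3.3), with Benjamini-Hochberg adjustment over 22046 probes. Steps between concentrations used the scanner intensities after normexp (offset 50) and loess. The fit was tested on simulated data. Tables were made with pandas 2.3.3 and plots with matplotlib 3.10.9.

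The members and gene lists were chosen with earlier results of these data known. Genes named in full were psmc1a, the cutting beta subunits, all immune-type genes, every member that fell with estradiol, up to 6 members with the smallest p in each comparison of estradiol with control, and up to 3 called genes per pathway list; the remaining members are named to account for all 51, and genes outside these were chosen after their values were seen. The p-values reflect only how far these samples vary, which may be partly technical. Alternatives were other normalizations, filters, control sets, weights, a replicate block and leaving out arrays or the low-signal arrays. The difference of log2 ratios between paired subunits was tested by exact permutation. Scan day and slide were not given, so no such block was run. Genes psma6l, psmb11a, psmb11b, psmb13a, psmd14, psme4a, psme4b and psmg4 were not analysed here. The highest correlation between any pair of arrays was 0.936, and none was counted as a repeat.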

Additional observations from a re-analysis of the deposited data

Results flagged for a closer look

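In 6 of 190 groups of 4 to 10 arrays, 1 array stood far from the rest by Dixon's criterion, which chance gives in about 1 group in 20. For psmd7, replicate 2 of the 96 h controls had a log2 ratio of -1.15, against -0.77 for the next lowest array. For psme1, replicate 5 of the 24 h controls had -1.86, against -1.21 for the next. On the same array psme3 had -1.15, against -0.59 for the next. For psme2, replicate 2 of the 24 h controls was high at -0.81, where the next was -1.43. At 50 µg/L and 96 h, replicate 4, a low-signal array, had a median of 0.61 over the 51 genes and 0.67 over the 35 constitutive genes, where the next arrays had 0.15 and 0.22.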

How the results depend on the processing

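The counts of genes that rose at 50 µg/L stayed within 27 to 37 at 24 h and 28 to 33 at 96 h under all settings run. At 5 µg/L and 24 h the count of 14 became 33 with array weights, 30 with pooled controls and 8 with only the arrays of that contrast, and at 96 h the count of 19 became 12 with the latter. At 0.5 µg/L and 96 h the count of 0 became 8 with array weights, 1 on probes with values on all arrays and 1 without the low-signal arrays. With array weights, 1 gene each differed between the times at 0.5 and 5 µg/L, and 1 gene differed between the controls, as with only the control arrays. The count for 5 against 0.5 µg/L at 24 h was 11 on the deposited log2 ratios. Leaving out 1 array at a time gave 0 to 0, 6 to 18 and 27 to 32 genes that rose at 0.5, 5 and 50 µg/L at 24 h, and 0 to 2, 14 to 21 and 29 to 33 at 96 h. It gave 1 to 4 genes between the controls, 4 to 15 for 5 against 0.5 µg/L at 24 h, and 0 for the other steps and for the differences between times. Of 50 calls of named genes, 39 held in every such fit and 11 were lost in some; no called change of a named gene reversed its direction under any setting run. Of 126 changes of named genes, 28 turned sign in at least 1 fit, and 0 of these 28 were called. Among them, psmb10 went with the mean over its probes from 0.08 to -0.04 at 0.5 µg/L and 24 h, from -0.02 to 0.02 at 50 µg/L and 24 h and from 0.17 to -0.09 at 5 µg/L and 96 h. With the replicate number as a block, 0, 10 and 29 genes rose at 24 h and 0, 15 and 32 at 96 h; 2 differed between the controls, 5 between 5 and 0.5 µg/L at 24 h, and 0 in the remaining comparisons. The numbers did not pair the arrays: same-numbered arrays correlated at -0.34 to 0.43, and at most 2 arrays of a comparison correlated best with their own number. Spot signal of the controls was not analysed here, which limits what can be said of dim genes.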
